A study of Mus musculus with 2 samples.

Results

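Natural killer (NK) cells were examined in 2 single-cell RNA libraries of mouse blood that had been prepared to study neutrophils. They were the cells with at least 5 unique molecular identifiers (UMIs, each standing for 1 captured RNA molecule) of Ncr1, Klrb1c, Prf1 and Gzma together, none of the T cell genes Cd3e, Cd3g and Trac, none of the B cell gene Cd79a and none of the monocyte gene Csf1r. They also had at least 1000 UMIs, at most 10% mitochondrial UMIs and less than 4% of their UMIs from the neutrophil genes S100a8 and S100a9. The rule took 351 of 17123 cells in the wild-type (WT) library and 625 of 17645 in the APP/PS1 library, 976 of 34768 in all. The WT library came from blood of C57BL/6J females and the APP/PS1 library from females carrying the APP/PS1 transgenes, a model of amyloid deposition. The genotype of each library was taken from its label and was not checked against a transgene. All mice were 7 months old, and blood of 3 mice was pooled into each library. Red cells were lysed and neutrophils were enriched by negative selection before capture, and both libraries are labelled as neutrophils. The NK cells were therefore cells that the enrichment left behind. The background strain and transgene promoter of the APP/PS1 mice were not given in the sources used here.

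NK cells are innate lymphocytes that kill infected or transformed cells by releasing perforin and granzymes. They lack a rearranged antigen receptor and read instead a balance of activating and inhibitory receptors, many of them C-type lectins encoded together in the NK gene complex. In mice, the Ly49 receptors of this complex bind MHC class I or related proteins, and each NK cell carries only some of them, so that blood holds a mixture of NK cells with different sets.

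With 1 pooled library per genotype there was no replicate, no test was made between the genotypes, and differences between the libraries cannot be told apart from differences between mice, cages or captures. Intervals in parentheses are exact 95% intervals (Poisson for UMI sums, conditional binomial for ratios, Clopper-Pearson for shares of cells) and cover counting error only. Levels are given in CPM, the UMIs of a gene summed over the NK cells of a library per 1000000 UMIs of those cells. The chemistry counts 1 end of each molecule, so levels were not divided by transcript length. The NK cells held 1320150 UMIs in WT and 2168608 in APP/PS1, of 92458623 and 84870864 in the whole libraries. Medians over WT NK cells were 3449 UMIs, 1509 genes and 2.36% mitochondrial UMIs, and medians over APP/PS1 NK cells were 3227 UMIs, 1442 genes and 2.22%.

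The 5-UMI limit fell in a nearly empty stretch. Among cells that met the other limits, 1462 in WT and 1640 in APP/PS1 had no UMI of the 4 genes, and 331 and 575 had 30 or more. Just outside the limit, 0 and 2 cells had 3 to 4 such UMIs, and just inside it 4 and 5 cells had 5 to 9. The other limits removed more cells. A single Cd3 or Trac UMI left out 15 WT and 29 APP/PS1 cells that were otherwise NK cells, 2 or more left out 105 and 210, and Csf1r left out 54 and 70. At the neutrophil limit, 4 and 9 cells with 3% to under 4% S100a8 and S100a9 were kept, and 5 and 6 cells with 4% to under 5% were not.

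**Figure D1:**
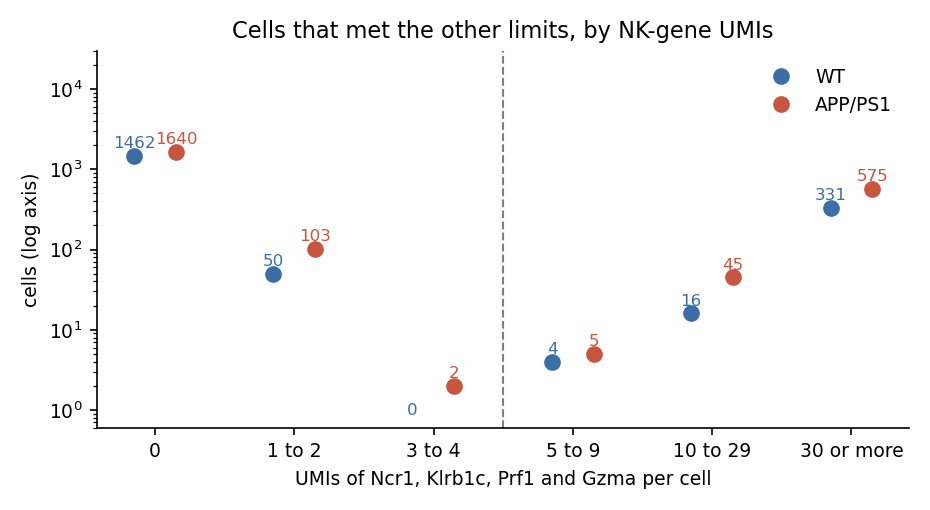
Number of cells (log axis) by the UMIs of Ncr1, Klrb1c, Prf1 and Gzma per cell, among cells that met the other limits, in WT and APP/PS1. Points left of the dashed line were not taken, and the interval of 3 to 4 UMIs held 0 WT and 2 APP/PS1 cells.

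The genes that chose the cells are given as a description of the choice. Gzma, which encodes granzyme A, had a median of 60 UMIs per WT cell and 57 per APP/PS1 cell. Prf1, which encodes perforin, had medians of 6 and 5, and the receptor genes Ncr1 and Klrb1c had 2 in WT and 3 in APP/PS1. All 4 genes were seen in 267 WT and 515 APP/PS1 cells, 3 of them in 75 and 95, and only 1 in 1 cell of each library. No NK cell was called on the same barcode in both libraries. The libraries shared 83 barcodes, of which 4 belonged to APP/PS1 NK cells and 0 to WT NK cells.

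Markers the rule did not use went with the label. Nkg7, a granule membrane protein, stood at 3433 CPM in WT and 3411 in APP/PS1. Klrd1 and Klrk1, receptors of the NK gene complex, stood at 1110 and 1117 CPM and at 837 and 889 CPM. The transcription factor Eomes, which separates NK cells from type 1 innate lymphoid cells, stood at 259.8 and 224 CPM. The signalling adaptors Tyrobp and Fcer1g stood at 3297 and 3458 CPM and at 2661 and 2866 CPM. These adaptors do not separate NK from myeloid cells, since Tyrobp stood at 3448 and 3636 CPM in the monocytes and 7331 and 7999.8 CPM in the neutrophils, and Fcer1g at 2658 and 2658 and at 2500.1 and 2684 CPM.

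Markers of other lymphocytes were also compared. The rule had set Cd3e, Cd3g, Trac and Cd79a to 0, so these say nothing about the label. The other 8 T cell markers summed to 80.3 CPM in WT and 81.2 in APP/PS1, where Cd4 had no UMI in either library, Cd8a had 0 and 5 UMIs, and Cd5 had 0 and 1. All 11 T cell markers summed to 3188 and 3516 CPM in the T cells. That sum includes the 3 genes of their gate, so it does not cover the same genes as the NK sum. The other 3 B cell markers summed to 5.30 and 1.38 CPM, the 6 markers of type 1 innate lymphoid cells to 60.6 and 54.4 CPM, the 3 of type 2 innate lymphoid cells to 81.8 and 73.3 CPM, and the 3 of basophils to 1.52 and 0.461 CPM. RNA of the abundant blood cells was present. The 5 neutrophil markers summed to 3544 CPM in WT and 4034 in APP/PS1, mostly S100a8 and S100a9, which the rule limited, and the other 3 to 429 and 460.2. The 5 erythroid markers, led by the globin Hbb-bs, summed to 6632 and 8388, the monocyte markers other than Csf1r, led by Lyz2, to 526 and 467, and the 4 platelet markers to 214 and 227. Gzma stood at 145 and 156 CPM in the neutrophils (5385 and 6022 cells at or above the S100 limit), against 16881 and 17026 CPM in the NK cells.

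**Figure D2:**
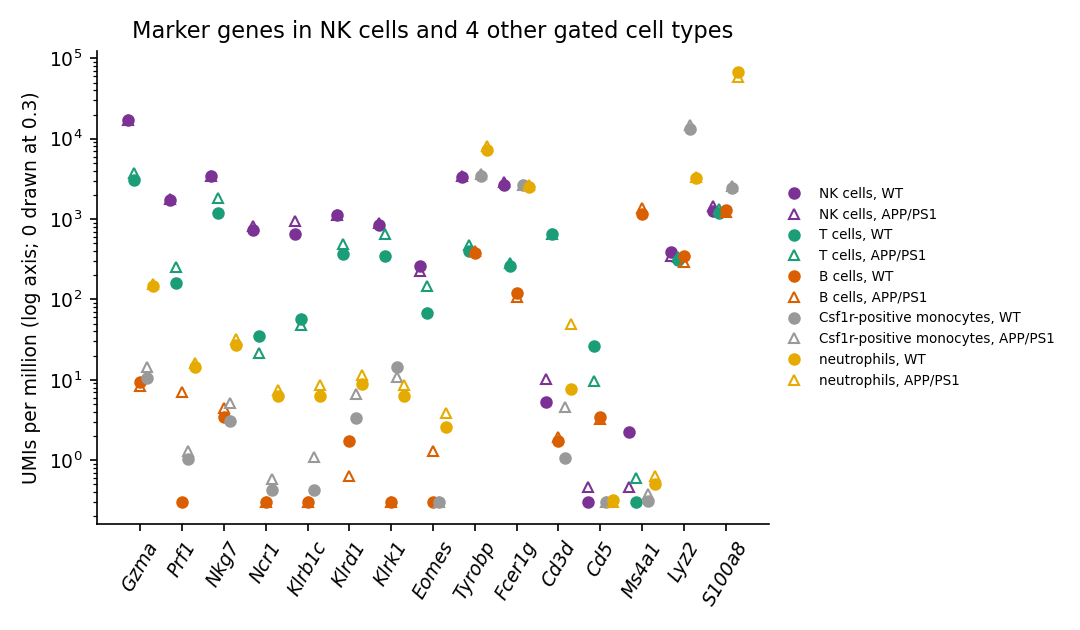
CPM (log axis, 0 drawn at 0.3) of 15 marker genes in NK cells, T cells, B cells, Csf1r-positive monocytes and neutrophils, with filled circles for WT and open triangles for APP/PS1. The NK cells lie highest for the killing genes and their receptors and near the floor for Cd5 and Ms4a1.

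Of all deposited cells, 2.05% of the WT library (1.84% to 2.27%) and 3.54% of the APP/PS1 library (3.27% to 3.83%) were NK cells, so that the share was 1.73 times as high in APP/PS1 (1.51 to 1.98). Among NK, T and B cells together, they were 39.1% (35.9% to 42.4%) in WT and 47.2% (44.5% to 49.9%) in APP/PS1. T cells, defined by at least 2 UMIs of Cd3e, Cd3g and Trac, were 304 and 420 cells, and B cells were 243 and 279. The cells were counted after neutrophil enrichment, so these are not shares of blood cells, and a difference in removal and a difference in blood cannot be told apart.

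Against T cells of the same library, NK cells were higher by a log2 ratio of 1 or more in both libraries for 100 of 1922 genes with at least 200 UMIs over both cell types in each library (5.2%) and lower for 54 (2.81%). Cells were picked by the genes they express, so this is a description of the gate. Of the 12 NK identity markers 9 were past that fold, as were all 6 Ly49 genes with enough UMIs, 8 of 12 measured members of the other receptors of the NK gene complex, 6 of 12 cytotoxic granule genes and 7 of 14 genes of mature NK cells. Of the immature NK list, 6 of 10 were lower in NK than in T cells and 1 was higher. Of the other receptors of the NK gene complex, 1 was lower. The T cell markers measured in this comparison, 8 of them, were all lower. These lists hold genes of the rule: 4 in the identity list, 2 in the granule list and 1 in the list of other receptors. The T cell list holds 3, which were set to 0 in NK cells and defined the T cells. Counts against T cells without the genes of the rule were not made.

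Several of the genes with the highest ratios were not receptors. Irf8, a transcription factor best known from myeloid cells, stood at 1591 CPM in WT NK cells against 52.8 in T cells (log2 ratio 4.91) and at 1273 against 32.3 in APP/PS1 (5.30). Atp1b1, a subunit of the sodium and potassium pump, had log2 ratios of 3.64 and 4.28. Cma1, a chymase gene usually associated with mast cells, stood at 405 and 435 CPM in NK cells against 15.8 and 4.78 in T cells, log2 ratios of 4.68 and 6.51. Serpinb9 and Serpinb9b, of a family of granzyme inhibitors, had log2 ratios of 3.09 and 3.22, and of 4.90 and 5.54. Ccl3 and Ccl4, chemokines that attract other leukocytes, were higher in NK cells by 4.45 and 3.97, and by 3.47 and 3.04. These genes had large ratios in both libraries, while the mast cell and basophil genes Mcpt8, Cpa3 and Fcer1a together reached no more than 1.52 CPM.

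Between the genotypes, most NK genes lay close together. Of 2684 genes with at least 200 UMIs over both NK sums, 35 were higher in APP/PS1 by a log2 ratio of 0.5 or more (1.3%) and 35 were lower by as much (1.3%), with a median of -0.00 and with 5th and 95th percentiles of -0.33 and 0.33. These counts came to 9 and 11 with thinned cells, where the minimum of 200 UMIs was applied to the thinned sums and fewer genes reached it. The higher count came to 66 with an S100 limit of 10%. Shares of the genes measured were not computed for these settings. Counts of list members past this fold are read against the shares of 1.3%.

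Killing genes lay within the fold in both directions. Of the 13 cytotoxic granule genes with enough UMIs, of 17 listed, 0 were past the fold in either direction, with a median log2 ratio of 0.02. The sum, 27336 CPM in WT and 27225 in APP/PS1, was mostly Gzma, which with Prf1 chose the cells. Without these genes the list summed to 8735 and 8400 CPM (-0.06, -0.09 to -0.02). Gzma stood at 16881 and 17026 CPM (log2 ratio 0.01, -0.01 to 0.04) and Prf1 at 1720 and 1799 CPM (0.06, -0.01 to 0.14). Gzmb, which encodes granzyme B, was the member furthest below, at 1481 and 1207 CPM (-0.30, -0.38 to -0.21), within the fold.

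**Figure D3:**
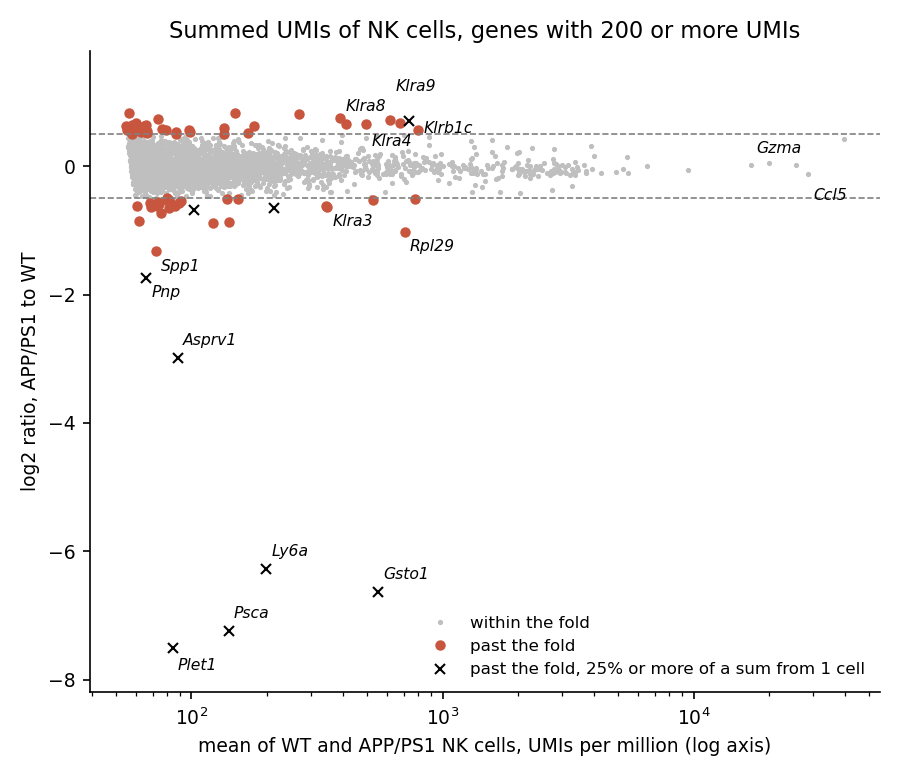
Log2 ratio of APP/PS1 to WT NK cells against the mean level (CPM, log axis) for 2684 genes with 200 or more UMIs. Dashed lines mark the fold of 0.5, and crosses mark genes past it that had 25% or more of a library's sum from 1 cell, which include the most negative ratios.

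The Ly49 receptors differed in both directions. Of 11 listed Klra genes 6 had enough UMIs, 3 of these were past the fold as higher in APP/PS1 and 1 as lower, with a median log2 ratio of 0.23. All 6 lie on the minus strand of chromosome 6 between 130043731 and 130386874 (mm10). Klra4 and Klra8 encode activating receptors (Ly49D and Ly49H) that signal through the adaptor encoded by Tyrobp. Klra9, Klra7, Klra3 and Klra1 encode inhibitory receptors (Ly49I, Ly49G, Ly49C and Ly49A). The family arose by gene duplication. The 150 bases before the RefSeq start of 5 of the genes (GRCm38.p6) are shown because these neighbouring genes differed in direction between the libraries. Capitals mark a run of 11 bases, TTTCCTCTTTT, that all 5 share.

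Klra4 (chr6:130067272-130067421, minus strand): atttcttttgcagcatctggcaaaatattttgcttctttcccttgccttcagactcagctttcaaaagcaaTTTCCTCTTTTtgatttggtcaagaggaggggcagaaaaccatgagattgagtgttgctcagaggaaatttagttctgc
Klra8 (chr6:130129899-130130048, minus strand): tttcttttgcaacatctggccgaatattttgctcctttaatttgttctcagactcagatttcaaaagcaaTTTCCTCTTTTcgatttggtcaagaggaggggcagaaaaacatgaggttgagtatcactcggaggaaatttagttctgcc
Klra9 (chr6:130193113-130193262, minus strand): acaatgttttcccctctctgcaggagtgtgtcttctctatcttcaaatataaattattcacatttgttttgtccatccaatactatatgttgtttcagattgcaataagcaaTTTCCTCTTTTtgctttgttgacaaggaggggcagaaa
Klra7 (chr6:130233323-130233472, minus strand): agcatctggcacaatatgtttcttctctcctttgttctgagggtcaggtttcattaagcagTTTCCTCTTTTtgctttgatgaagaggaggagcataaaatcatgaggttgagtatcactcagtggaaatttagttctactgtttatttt
Klra3 (chr6:130337627-130337776, minus strand): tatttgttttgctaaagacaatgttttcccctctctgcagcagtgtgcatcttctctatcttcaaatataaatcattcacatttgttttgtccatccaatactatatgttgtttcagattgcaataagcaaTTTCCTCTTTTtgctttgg

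Read in the direction of transcription, the run began 79 bases before the start in Klra4, 80 in Klra8, 38 in Klra9, 89 in Klra7 and 19 in Klra3. It was chosen because these 5 share it, was searched on both strands, and was found in 8 of 11 Ly49 windows and in 31 of 32851 windows of all genes (0.0944%). The RefSeq start of Klra3 lies 52 bases beyond the end of the gene in GENCODE, so its distance depends on the annotation. For the other 4 genes both annotations gave the same start. Identity was taken as the window length less the edit distance between whole windows, as a percentage of that length. Each window was placed by its own start and was not shifted to line up the run, so a differing start lowers this identity. By this measure, over 250 bases, the windows of these 5 genes fell into a pair of groups. How far the groups depend on the annotated starts was not tested. Klra4, Klra8 and Klra7 were 72.8% to 84.4% identical to each other and Klra3 and Klra9 82.4%, while identities across the groups were 43.2% to 45.2%. The window of Klra1, not shown, was 42.8% to 46.4% identical to those of the 5 genes and fell in neither group. Klra4 and Klra8 had the same direction between the libraries, and Klra3 and Klra9 had opposite directions. Klra7 was lower where Klra4 and Klra8 were higher. No binding was measured in these windows.

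Klra4 stood at 384 CPM (351 to 419) in WT and 608 (576 to 642) in APP/PS1, a log2 ratio of 0.66 (0.51 to 0.81). Klra8 stood at 293 CPM (265 to 324) and 491 (462 to 522), a log2 ratio of 0.74 (0.58 to 0.92). Both activating receptors were higher in APP/PS1, with intervals of counting error that did not overlap. Klra9, an inhibitory receptor, was higher as well, at 469 CPM in WT and 770.1 in APP/PS1 (0.72, 0.58 to 0.85). Klra3 was lower, at 421 CPM and 272 (-0.63, -0.80 to -0.46). Klra7 stood at 408 and 309 CPM (-0.40, -0.57 to -0.23) and Klra1 at 207 and 179 (-0.21, -0.43 to 0.02), both within the fold. The inhibitory genes thus did not share a direction.

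For Klra4, Klra8, Klra9 and Klra3, the difference lay mostly in how many cells had the gene. Each cell was thinned to 1000 UMIs to put all cells at one depth, which left out 0 cells because the rule required that many. Klra4 then had a UMI in 17.1% of WT and 28.96% of APP/PS1 NK cells (25.9% and 37.9% without thinning). Klra8 had one in 17.9% and 27.7% (26.5% and 40.8%), and Klra9 in 23.6% and 44.5% (36.5% and 64.2%). Klra3 went the other way, with 23.6% and 16.2% (37.9% and 25.9%). In B cells, which do not use these receptors, thinned shares of the 6 genes were 0% in WT and at most 0.358% in APP/PS1, where the median cell had 4125 and 5515 UMIs before thinning.

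Among cells with a UMI the level was close in both libraries for the activating receptors. Klra4 had a mean of 5.57 UMIs per cell with it in 91 WT cells and 5.57 in 237 APP/PS1 cells, and Klra8 had 4.16 in 93 and 4.18 in 255. Klra9 had 4.84 in 128 WT cells and 4.17 in 401 APP/PS1 cells, and Klra3 4.18 in 133 and 3.64 in 162. The level differed more for Klra7 and Klra1, which were within the fold. Klra7 had 3.45 in 156 WT cells and 2.70 in 248 APP/PS1 cells, and Klra1 3.25 in 84 and 4.18 in 93. These means were not thinned and leave out cells in which the gene was missed.

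**Figure D4:**
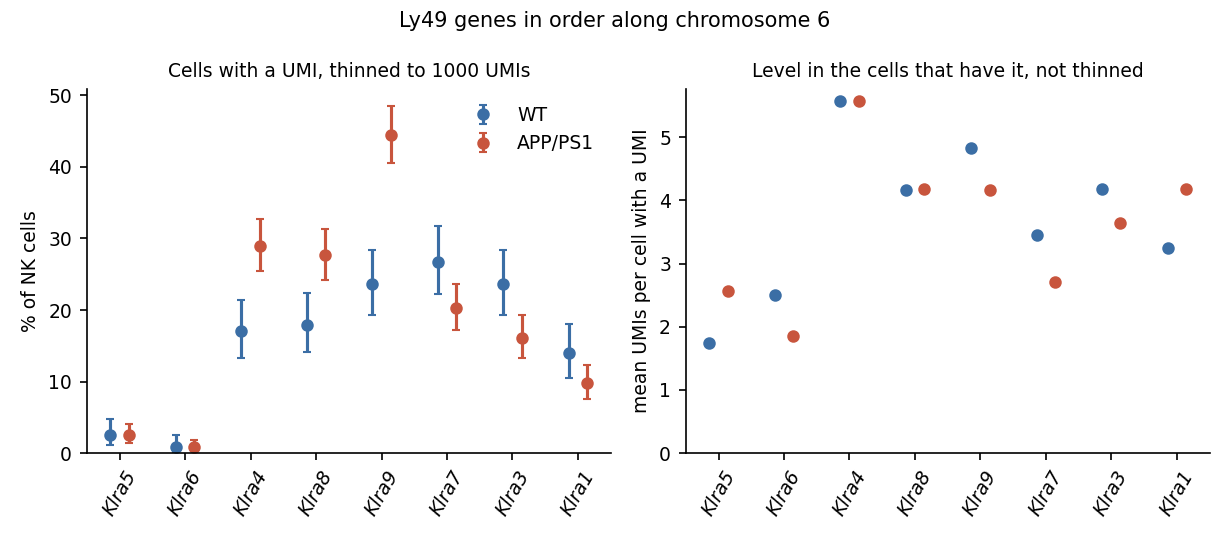
Left, percentage of NK cells with a UMI of each Ly49 gene after thinning to 1000 UMIs, with exact 95% intervals over cells. Right, mean UMIs per cell with the gene, not thinned. Genes stand in their order along chromosome 6, and Klra4, Klra8 and Klra9 are higher in APP/PS1 on the left while Klra4 and Klra8 lie together on the right.

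Klra genes were also counted within each cell. After thinning, WT NK cells had a UMI of 1.27 ± 1.08 Ly49 genes (SD over 351 cells) and APP/PS1 NK cells 1.51 ± 1.08 (625 cells), and without thinning 2.07 and 2.34. None was seen in 24.5% of WT and 17.1% of APP/PS1 cells, and 2 or more in 34.5% and 44.96%. The difference in the latter share was 10.5 percentage points (3.93 to 16.9). Cells with 5 or more were few and went the other way, at 1.14% in WT and 0.48% in APP/PS1 (6.27% and 4.48% without thinning). Cells are not replicates of a genotype, and these spreads are over cells of 1 library.

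Which receptors were seen in the same cell is given as a description without a test. In thinned WT cells, Klra8 was seen in 40.0% of the cells with Klra4 and in 13.4% of the others. In APP/PS1 the shares were 38.7% and 23.2%. Klra9 was rarer in cells with Klra3, at 9.64% against 27.99% of the others in WT and 34.7% against 46.4% in APP/PS1. Of 7 pairs looked at in thinned cells, 4 had the same direction in both libraries. The others of these were Klra8 with Klra9, where Klra9 was seen in 42.9% of WT cells with Klra8 and 19.4% of the others, and in 45.7% and 44.0% in APP/PS1, and Klra3 with Klra7, where Klra7 was seen in 25.3% and 27.2% in WT and in 16.8% and 20.99% in APP/PS1. The remaining 3 pairs changed direction, among them Klra4 with Klra9. Klra9 was seen in 31.7% of WT cells with Klra4 and 21.99% of the others, but in 39.2% and 46.6% in APP/PS1. Klra8 was seen in 17.0% of WT cells with Klra7 and 18.3% of the others, and in 39.4% and 24.7% in APP/PS1. Klra8 was seen in 21.7% of WT cells with Klra3 and 16.8% of the others, and in 22.8% and 28.6% in APP/PS1. Without thinning this last pair kept its direction, at 24.1% and 27.98% in WT and 39.5% and 41.3% in APP/PS1.

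Reads of copies this alike can be lost or given to the wrong gene. In the last 500 bases of their transcripts, where the 3′ reads start, 49.4% of the 50-base words of Klra9 and 31.5% of those of Klra3 were found in another Klra gene, against 13.1% for Klra8 and 4.66% for Klra4. The shares were 22.1% for Klra7 and 6.96% for Klra1. Klra9 shared the most words with Klra3, and Klra3 the most with Klra9. Levels of Klra9 and Klra3 are thus less certain than those of Klra4 and Klra8. The opposite directions of Klra9 and Klra3, and how often they were seen together, depend on telling this pair apart. Whether reads were exchanged between them was not tested. Ly49 genes also differ in number and sequence between inbred mouse strains, the counts were made on 1 reference genome, and a difference in strain and a difference in expression cannot be told apart here. The T cells of the same libraries, with far fewer UMIs of these genes, had the same directions for the genes that were past the fold in NK cells. Klra4 had 2 UMIs in WT and 36 in APP/PS1 T cells, Klra8 had 2 and 19, Klra9 had 76 and 169, and Klra3 had 105 and 39. Over all Ly49 genes the T cells went the other way, with sums of 355 CPM in WT and 268 in APP/PS1 against 2231 and 2689 in NK cells, and Ccl5-positive CD8 cells were 126 of the 304 WT and 258 of the 420 APP/PS1 T cells. T cell and NK cell values come from the same pools of mice and are not independent.

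Other receptors of the NK gene complex had values on both sides of 0. Leaving out Klrb1c, which chose the cells, 2 of 12 measured members were past the fold as higher and 0 as lower, with a median of 0.07. Their sum was 4480 CPM in WT and 5033 in APP/PS1 (0.17, 0.12 to 0.21). Klrb1c itself stood at 645 and 955 CPM (0.57, 0.45 to 0.68). Its neighbour Klrb1b, an inhibitory receptor, stood at 140 and 215 CPM (0.62, 0.37 to 0.87), and Clec2d, which encodes its ligand, at 111 and 158 CPM (0.51, 0.22 to 0.80). The ratio of Clec2d was under the fold without the cells that the doublet caller Scrublet scored highest, at 0.47. Klre1, Klrc2 and Klrc1, which encode receptor chains, were within the fold at log2 ratios of 0.48, 0.48 and 0.43. Klrb1a and Klrb1f, activating receptors, lay below 0, at -0.22 (-0.43 to -0.00) and -0.30 (-0.56 to -0.04). The shared partner chain Klrd1 (0.01, -0.08 to 0.10), Klrk1 (0.09, -0.02 to 0.20) and Klrg1, a marker of mature cells (-0.01, -0.19 to 0.17), were closer to 0.

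Other surface receptors without Ncr1, which chose the cells, summed to 1179 CPM in WT and 1350 in APP/PS1 (0.20, 0.11 to 0.28). Of the 8 measured ones, with a median of 0.19, 0 were past the fold as higher and 1 as lower. This was Cd96, an inhibitory receptor that shares a ligand with Cd226, at 79.5 CPM in WT and 43.8 in APP/PS1 (-0.86, -1.28 to -0.45), and at a log2 ratio of -0.43 with thinned cells, under the fold. Of 15 adaptors and signalling genes 1 was lower, Cd247, the zeta chain that carries signals of Fc and natural cytotoxicity receptors, at 163 and 115 CPM (-0.50, -0.77 to -0.23), which came to -0.28 with thinned cells. That list's median was -0.02 while its sum was higher in APP/PS1, at 8650 and 8905 CPM. The log2 ratio of its sum turned to -0.0179 with thinned cells. Tyrobp, the partner of Klra4 and Klra8, stood at a log2 ratio of 0.07 (0.01 to 0.12).

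Of 14 transcription factors 0 were higher and 1 was lower. Prdm1, which restrains NK cell proliferation, stood at 93.9 CPM in WT and 56.7 in APP/PS1 (-0.73, -1.10 to -0.36). Irf8 stood at -0.32 (-0.40 to -0.24) and Klf2, a regulator of lymphocyte quiescence and trafficking, at 0.27 (0.21 to 0.33), both within the fold. Eomes and Tbx21, the factors that set NK identity and maturation, stood at -0.21 (-0.42 to -0.01) and 0.32 (0.05 to 0.59). The list's median was -0.16, with sums of 8732 and 8740 CPM.

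Secreted products were led by Ccl5, a chemokine and the most abundant of them, at 29960 CPM in WT and 27411 in APP/PS1 (-0.13, -0.15 to -0.11). Of 9 measured cytokines and chemokines 0 were higher past the fold and 1 was lower, Tgfb1, at 179.5 and 126 CPM (-0.51, -0.77 to -0.25), which came to -0.47 with an S100 limit of 10%. Ccl3 stood at 461 and 636 CPM (0.46, 0.33 to 0.60) and Xcl1 at 103 and 140.2 (0.44, 0.15 to 0.75). Ifng, which encodes interferon gamma, had a log2 ratio of 0.31 (0.10 to 0.53). The list's median was 0.11, while its sum, mostly Ccl5, was lower in APP/PS1, at 33391 and 31399 CPM. Of 14 cytokine receptors 1 was lower, Il10ra, a chain of the interleukin 10 receptor, at 88.6 and 57.6 CPM (-0.62, -0.996 to -0.24), and 0 were higher. Of 18 trafficking genes 0 were past the fold, with S1pr5, which guides exit from tissues, at 183 and 235 CPM (0.36).

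Of 23 immediate early genes 4 were higher past the fold and 1 was lower, with a median of 0.18. Fos stood at 321 CPM in WT and 508 in APP/PS1 (0.66, 0.50 to 0.83), Fosb at 108 and 163 (0.60), Egr1 at 108 and 191 (0.83) and Atf3 at 70.5 and 102 (0.54). Dusp2, a phosphatase that limits such signals, was lower, at 917 and 642 CPM (-0.51, -0.63 to -0.40), and just under the fold with thinned cells (-0.499). Part of this lay in cells that Scrublet, a doublet caller, scored among the 8% highest of each library, 8 WT and 30 APP/PS1 NK cells. In those cells Egr1 was at 258 and 1282 CPM, the neutrophil markers at 13611 and 16319 CPM and the erythroid markers at 986 and 71367 CPM. In the remaining 343 and 595 cells Egr1 was at 103 and 99.5 CPM and the erythroid markers at 6820 and 3084 CPM. Without the marked cells the log2 ratio of Egr1 was -0.04 that of Atf3 0.30 and that of Fos 0.49, all under the fold, and that of Fosb was 0.53. With thinned cells Fos also stood at 0.49. Il1b, a cytokine gene that neutrophils express strongly and among the 10 highest ratios (0.67), was at 3614 and 5420 CPM in the marked cells and at 420 and 448 in the others, a ratio of 0.09 without them. For Klra4, Klra8, Klra9 and Klra3 the ratios without the marked cells were 0.67, 0.77, 0.76 and -0.61.

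Among the remaining lists few members were past the fold. Of 10 measured interferon response genes 1 was higher, Gbp7 (0.56), and 1 was lower, Ly6a, whose WT sum came almost wholly from 1 cell. Gbp7 stood at 0.42 with thinned cells. The list's median was 0.03 and its sums 2201 and 1908 CPM, and the ratio of the sums turned to 0.11 without 3 outlying cells per library, the Ly6a cell among them, and to 0.06 with thinned cells. Of 13 measured genes of MHC class I presentation, which loads the ligands of Ly49 receptors, 1 was higher, Tap2 (0.56), and the sums were 9740 and 9881 CPM. Of 6 measured proliferation genes 0 were past the fold, and all 6 were below 0, with a median of -0.27. The sum over the 14 genes of that list was 1461 CPM in WT and 1199 in APP/PS1 (-0.29, -0.37 to -0.20), and its log2 ratio was -0.09 with thinned cells. With thinned cells, Hmgb2, Pcna and Tuba1b stood at 0.04, 0.02 and 0.22, above 0. The WT cell with the most UMIs, 21224, held 75 UMIs of the histone gene Hist1h1b and 34 of Top2a, both made in dividing cells, and the APP/PS1 cell with the most, 19943, held 87 and 16. Of 8 measured heat shock genes 0 were past the fold, with a median of 0.02. Of 8 genes listed because they were known from other cells of these libraries, 0 reached 200 UMIs in NK cells. Their sum was higher in APP/PS1, at 79.5 CPM in WT and 124 in APP/PS1 (0.64, 0.31 to 0.98), on 105 and 268 UMIs, led by the chemokine receptor gene Ccrl2 at 25.8 and 44.7 CPM. In the neutrophils the list summed to 421 and 877 CPM, and without the Scrublet-marked NK cells its log2 ratio was 0.32. The part of neutrophil RNA in this difference was not tested.

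Maturation was compared within each library. NK cells lose Cd27 and gain Klrg1 as they mature. Klrg1 without Cd27 was seen in 199 WT cells (56.7%) and 350 APP/PS1 cells (56.0%), Cd27 without Klrg1 in 10 (2.85%) and 23 (3.68%), both in 8 and 12, and neither in 134 and 240. The genotypes were close in these shares, and median UMIs of the Klrg1 and Cd27 classes were 3591 and 3975 in WT and 3413 and 3671 in APP/PS1. Because single UMIs decide the class, many cells of the neither class may have either gene.

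The classes differed in other maturation genes. Over 15 genes of the mature list other than Klrg1, Klrg1 cells stood at 9891 CPM and Cd27 cells at 7287 in WT (log2 ratio 0.44, 0.27 to 0.61), and at 10032 and 6466 in APP/PS1 (0.63, 0.51 to 0.76). Over 15 genes of the immature list other than Cd27, they stood at 1879 and 2632 CPM in WT (-0.49, -0.77 to -0.19) and at 1885 and 4429 in APP/PS1 (-1.23, -1.39 to -1.08). The WT value rests on 108 UMIs of 10 Cd27 cells and turned to 0.10 when cells were thinned. Xcl1, a chemokine of less mature NK cells, stood at 74.6 CPM in Klrg1 cells and 293 in Cd27 cells of WT and at 85.0 and 1008 in APP/PS1. Gzmb went the other way, at 1652 and 731 CPM in WT and 1342 and 709 in APP/PS1. Between genotypes, the mature list had 0 higher and 1 lower (Prdm1) of 15 measured members (median 0.06, sums 10047 and 9944 CPM), and the immature list 0 of 5 past the fold (median 0.05).

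Genes varied from cell to cell to different degrees. The ratio of variance to mean over thinned cells, which is 1 for counting noise alone, had a median of 1.03 in both libraries over 2728 genes. Ccl5 reached 7.22 in WT and 6.57 in APP/PS1, Ccl4 4.41 and 11.9, Gzma 3.38 and 3.07 and Klra4 3.06 and 2.37. The globin Hbb-bs, at 215 and 263, was the extreme, with 1906 of its 4596 WT UMIs in 1 cell and 3184 of 9347 in 1 APP/PS1 cell.

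Single cells set the most negative ratios between the genotypes. One WT cell of 17964 UMIs, with 58 UMIs of the 4 NK genes, held 1434 of the 1445 Gsto1 UMIs of all WT NK cells, 513 of Ly6a, 367 of Psca and 221 of Plet1. It also held 78 UMIs of Krt13 and 107 of Krt19, keratins of epithelial cells, which were looked up after its other genes were seen, and the doublet caller did not mark it. The log2 ratios of Gsto1, Ly6a, Psca and Plet1 were -6.63, -6.27, -7.24 and -7.50. Without the top cell of each gene in each library, Gsto1 stood at 0.28 and Ly6a at 0.28, and of the 35 higher and 35 lower genes 35 and 23 were still past the fold. Of the lower genes 8 had 25% or more of a sum from 1 cell, against 1 of the higher genes.

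**Figure D5:**
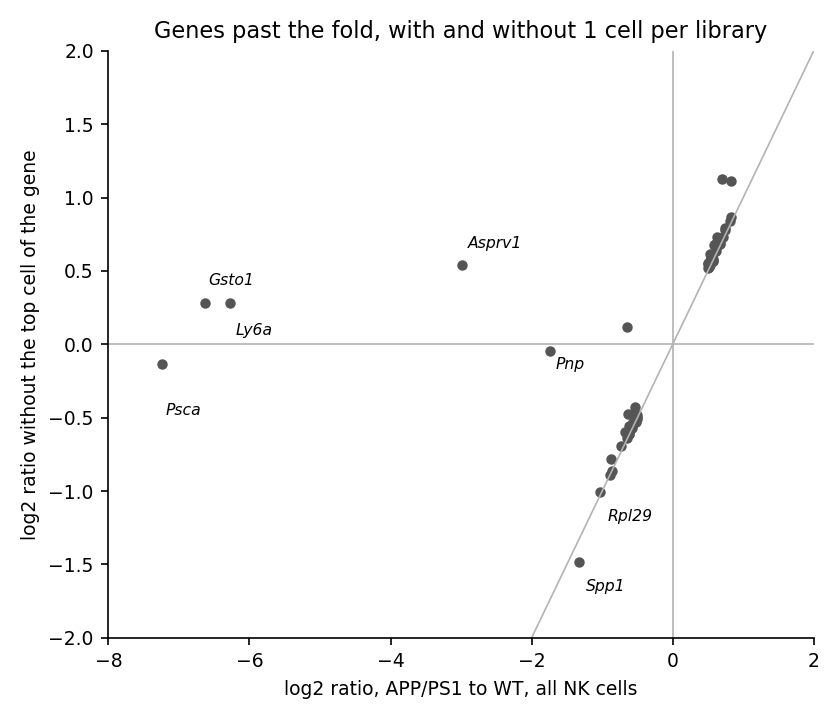
Log2 ratio of APP/PS1 to WT for genes past the fold, over all NK cells (horizontal axis) and without the cell that held most of the gene's UMIs in each library (vertical axis). Most genes lie on the diagonal, while Gsto1, Ly6a and Asprv1 move from below -2 to above 0.

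Other genes lay among the 10 highest and 10 lowest ratios. Spp1, which encodes osteopontin, stood at 103 CPM in WT and 41.0 in APP/PS1 (-1.33, -1.73 to -0.93), while in T cells it was higher in APP/PS1 on 2 and 16 UMIs. Chmp4b, of the membrane remodelling machinery, stood at 183 and 99.6 CPM (-0.87), and Borcs7, of a complex that positions lysosomes, at 158 and 85.3 (-0.89). Scand1, a transcription regulator, stood at 194 and 341 CPM (0.82, 0.61 to 1.03), and Ppp1r10, a phosphatase subunit, at 40.9 and 72.4 (0.82, 0.37 to 1.30). Rpl29, a ribosomal protein gene, stood at 948 and 465 CPM (-1.03, -1.15 to -0.91). It was lower in APP/PS1 in the T cells (-1.23), B cells (-0.85), monocytes (-0.94) and neutrophils (-0.80) too. The direction was thus shared by all 5 gated cell types. Gm26740, an antisense transcript, and Bbip1, a gene of the ciliary BBSome complex, had ratios of 0.74 and 0.68. Gm26740 came to 0.41 with thinned cells, and Bbip1 to 0.45 as a mean over cells. Pnp (-1.74) and Asprv1 (-2.98) were lower and the globin Hbb-bt (0.70) higher, each with 25% or more of a sum from 1 cell. Without 3 outlying cells per library Asprv1 turned to 0.98 and Pnp to 0.001. Without the highest Scrublet scores Hbb-bt turned to -0.54. Scand1 had a ratio of 0.86 in T cells and of 0.12, 0.26 and 0.23 in B cells, monocytes and neutrophils. The noncoding transcript Gm42418, which overlaps a ribosomal RNA repeat, likewise stood at 33852 and 45509 CPM in NK cells (0.43) and was between 0.30 and 0.53 in the other 4 cell types.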

How the data were processed

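The deposited files hold, per library, UMI counts of each gene in each cell, made by the authors with Cell Ranger 5.0.0 and its mm10 reference from Chromium 3′ v3 libraries. All 34768 deposited barcodes, each with 500 or more UMIs, were read. NK cells were taken by the limits given above, and T, B, monocyte and neutrophil cells by gates of the same kind. Counts were summed over the cells of a type in each library and divided by their total (CPM). Genes needed 200 UMIs, over both libraries for the genotypes or over both cell types in each library against T cells. The fold limits were 0.5 and 1 on the log2 scale. Cells were not treated as replicates, and no p-value was computed.

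The members and the 27 gene lists were chosen with earlier results of these data known. The text names list members with enough UMIs, the 10 highest and 10 lowest ratios between the genotypes, the 15 most abundant genes and the 15 highest ratios to T cells. Other named genes were picked after their values were seen. No cell was removed as a doublet in the values given first, though the rule bars some markers of other cell types, and cells with others were kept. Scrublet (scanpy 1.11.5) was run on each library and its 8% highest scores removed as an alternative. Coordinates are from GENCODE M21 on mm10, and promoters are from RefSeq on GRCm38.p6, where 2 Ly49 genes had more than 1 entry and the start at the end of the GENCODE gene was used. The summing and intervals were tested on simulated counts. Alternatives changed the cell limits, the UMI minimum, the scaling (TMM of edgeR 4.0.16, with factors of 1.00 and 0.996), thinning and the doublet removal. Python 3.11.15, numpy 2.4.6, scipy 1.17.1 and pandas 2.3.3 were used.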

Additional observations from a re-analysis of the deposited data

Results flagged for a closer look

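Asprv1, Ly6a and Gsto1 stood out because their ratio of APP/PS1 to WT had opposite signs in NK cells and in T cells. Asprv1 had a log2 ratio of -2.98 in NK cells and 3.74 in T cells, Ly6a -6.27 and 0.93, and Gsto1 -6.63 and 3.16. The difference between the cell types was not tested, since each library was the only one of its genotype. In WT NK cells, 1 cell held 93.7% of the Asprv1 UMIs, and 1 cell held 99.2% of those of Ly6a and of Gsto1. In APP/PS1 T cells, 1 cell held 145 of 168, 191 of 320 and 261 of 294 UMIs, against 10, 133 and 26 UMIs in all WT T cells.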

How the results depend on the processing

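No paired analysis was possible because each genotype was 1 library, and leaving out a library leaves no comparison. The limits of 200 UMIs and of cell depth set the counts. With thinned cells the 200 UMIs were required of the thinned sums, so those counts cover fewer genes. The number of genes measured differed between alternatives, and shares of it were not computed. Of 18 named genes past the fold as higher, 16 kept their sign and 9 stayed past the fold in all 16 alternatives. Among the 9 were Klra4, Klra8, Klra9, Klrb1c and Klrb1b, of which Klrb1c was also used to choose the cells. Alternatives that changed only the UMI minimum could not change a gene's ratio, so they repeat its first value. Of 17 named lower genes, 10 kept their sign and 6 stayed past the fold in all 16, among them Klra3 and Prdm1. Another 2, Plet1 and Rpl29, were past it wherever they had a value, which Plet1 lacks without its 1 cell and Rpl29 without ribosomal genes. The causes of the changes below were not tested. The difference in NK share was 8.12 percentage points among NK, T and B cells. Counts of genes higher in APP/PS1 were 66 with an S100 limit of 10% and 9 with thinned cells. They were 115, 13 and 1634 with minimums of 100 UMIs, of 400 UMIs, and of only 1 UMI in each library. Lower genes were 11 with thinned cells, and 120, 11 and 2047 with those minimums. Against T cells, 28 genes were higher and 6 lower with thinned cells, 174 and 103 with 100 UMIs, and 16 lower against Ccl5-positive CD8 T cells. Between maturation classes, the immature list in WT turned to 0.10 and the mature list in APP/PS1 went to 0.49 with thinned cells, and the immature list in APP/PS1 to -1.005 with 10 NK UMIs.

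The log2 ratio of the cytotoxic granule sum was -0.0316 with the percentile filter on genes and UMIs stated in the methods, -0.0386 with an S100 limit of 10%, 0.0180 without the highest Scrublet scores, -0.0261 without mitochondrial and ribosomal genes, -0.0299 as a mean over cells, -0.0312 with thinned cells and -0.0315 without 3 outlying cells per library. The immediate early sum was 0.0265 and 0.138 with S100 limits of 2% and 10%, 0.0184 without the highest Scrublet scores and 0.0212 as a mean over cells. Removing 3 outlying cells per library, or the top cell of each gene, was chosen after seeing the data. With the percentile filter, without 3 cells and without the top cell, Asprv1 turned to 0.98, 0.98 and 0.54, Ly6a to 1.13, 1.13 and 0.28, and Gsto1 to 0.38, 0.26 and 0.28. Psca turned to 0.25 and 0.26 in the first of these settings, and Pnp to 0.001034 without 3 cells. Without the highest Scrublet scores, Hbb-bt turned to -0.54, Egr1 to -0.0435, the neutrophil sum to -0.0975 and the erythroid sum to -1.15. The erythroid sum was -0.19 as a mean over cells and -0.21 with thinned cells, the neutrophil sum -0.0178 with an S100 limit of 2%, the monocyte sum 0.0258 with one of 10%, and the adaptor sum -0.0179 with thinned cells. The interferon sum was 0.11 with the percentile filter and without 3 cells, 0.0337 as a mean over cells and 0.0592 with thinned cells. Of 322 values of list sums under the alternatives, 261 stayed within counting error, and of 3388 values of named genes 3223 did. The values of named genes include those under other UMI minimums, which could not differ from the first value.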
